A study of Mus musculus with 6 samples.

Results

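Transcripts for making, using and exporting ketone bodies were followed through 5 genes in livers of fasted mice: Acat1, Bdh1, Bdh2, Oxct1 and Slc16a1. They were taken by symbol, 5 of 30869 symbols on the array, which gave 7 of the 45281 probes of an Illumina WG-6 bead array, 2 each for Bdh1 and Oxct1 and 1 each for the others. The mice were male, of the C57BL/6 background, kept on normal chow, and the liver was collected after a fast of 24 h. Of the 6 mice, 3 were wild type and 3 were littermates labelled Creb3l3 KO. These lack CREBH, which hepatocytes make as a transcription factor held in the endoplasmic reticulum membrane until cleavage frees it. Each mouse gave 1 array. Their ages, and the cells in which the deletion was made, are not given in the sources used here.

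In fasting, hepatocyte mitochondria turn acetyl-CoA from fatty acid oxidation into acetoacetate, and much of it is reduced to beta-hydroxybutyrate before both leave the cell for brain, heart and muscle. ACAT1 is the mitochondrial thiolase that joins acetyl-CoA units into acetoacetyl-CoA, and BDH1 is the mitochondrial dehydrogenase that interconverts acetoacetate and beta-hydroxybutyrate. BDH2 is a cytosolic dehydrogenase that has been assigned a like reaction and a part in iron handling. OXCT1 activates acetoacetate for burning in peripheral tissues and is scarce in hepatocytes, and SLC16A1, the monocarboxylate transporter MCT1, carries lactate and ketone bodies across the plasma membrane.

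The arrays differed in brightness. Between 15504 and 16224 probes were detected on the wild-type arrays (detection p under 0.05), against 11846 for knockout mouse 1, 15867 for knockout mouse 2 and 4302 for knockout mouse 3. The last array correlated with the others at Pearson's r of 0.676 to 0.697 across probes, where the other 5 correlated at 0.973 to 0.993. The main values below therefore come from the 5 arrays without knockout mouse 3, and for the members and the named pathway genes the log2 change in all 6 is given too. Of 8 hepatocyte markers on the array, 6 or 7 were detected on each of those 5 arrays and 5 on knockout mouse 3. The deposited signal of Creb3l3 was 929 to 1201 in wild type and 148, 283 and 87.9 in knockout mice 1, 2 and 3. Whether its probe lies in the deleted part is not known here.

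Promoter sequence is shown for Bdh1 and Bdh2, the 2 members whose signals moved furthest, in opposite directions, in a mouse that lacks a transcription factor. Each run holds the 250 bases before a RefSeq transcription start of assembly GRCm38.p6, on the plus strand. RefSeq gives Bdh1 2 starts, with runs at chr16:31422047-31422296 and chr16:31428503-31428752, and Bdh2 1, with its run at chr3:135280971-135281220. Capitals would mark a cyclic AMP response element (TGACGTCA), its core (TGACG) or a nuclear receptor motif (AGGTCA), each read on both strands.
Bdh1, first start: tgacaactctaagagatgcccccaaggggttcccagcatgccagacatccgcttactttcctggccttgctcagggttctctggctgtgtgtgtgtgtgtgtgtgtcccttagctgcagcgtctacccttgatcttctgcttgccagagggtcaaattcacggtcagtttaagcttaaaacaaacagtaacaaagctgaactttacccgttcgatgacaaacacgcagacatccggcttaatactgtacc
Bdh1, second start: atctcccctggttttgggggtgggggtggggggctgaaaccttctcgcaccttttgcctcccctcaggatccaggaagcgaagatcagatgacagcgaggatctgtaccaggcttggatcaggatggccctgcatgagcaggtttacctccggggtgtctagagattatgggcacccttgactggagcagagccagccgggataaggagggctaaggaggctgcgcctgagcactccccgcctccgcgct
Bdh2: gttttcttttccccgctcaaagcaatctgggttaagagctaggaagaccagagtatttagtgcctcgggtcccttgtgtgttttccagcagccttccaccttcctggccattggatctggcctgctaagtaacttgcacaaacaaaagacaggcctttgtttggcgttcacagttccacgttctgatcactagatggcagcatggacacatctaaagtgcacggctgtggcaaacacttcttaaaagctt

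No capital appears, since none of these letters occurs in the 3 runs. The wider windows, from 250 bases before to 50 from the start on, held no match either, in Bdh1, Bdh2, Oxct1 or Slc16a1. Over all 32851 such windows the full element was found in 1.79%, its core, which is contained in it, in 20.8% and the nuclear receptor motif in 16.3%. The direct repeat of that motif with 1 base between its copies, of the kind PPAR receptors bind, was found in 0.0396% of all windows and in 0 of those of the members. The GC box GGGCGG, present in 35.7% of windows, lay 85 bases before the start of Slc16a1 and, on the opposite strand, 15 bases after the second Bdh1 start. GC content was 49.6% and 60.8% in the Bdh1 runs, 48.0% in that of Bdh2 and 76.4% in that of Slc16a1. These are matches of letters only.

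In the knockout liver, the transcript of the ketone body dehydrogenase Bdh1 fell at 1 of its 2 probes, by 1.38 on the log2 scale or 2.60-fold, and its other probe stood at -0.91 without passing the test. The signal of Bdh2 stood 0.98 higher and did not pass. Acat1 and Oxct1 overlapped between genotypes, and Slc16a1 was detected on no array. Of the 7 probes, 6 reached detection on at least 3 arrays and were tested. In the 5 arrays 0 of them rose and 1 fell (limma, adjusted p under 0.05), where 0.342% of all 14345 tested probes were called, 9 higher (0.0627%) and 40 lower (0.279%). That split was 25 higher and 58 lower with cyclic loess and 0 and 4 with median scaling. Across all 6 arrays 0 of the 6 were called, and 0 of 14494 probes overall (0%). At an unadjusted p under 0.05, both Bdh1 probes were lower and Bdh2 higher in the 5 arrays, where 12.1% of all probes had such a p and 7.47% were lower with it. In the 6 arrays it was the 2 Bdh1 probes, beside 3.85% of all probes and 3.3% on the low side, and with array weights 3 of the 6 member probes were called, a fit that called 19.5% of all probes. The median log2 change of the 6 probes was -0.12 in the 5 arrays and that of all tested probes was -0.03. Of the 6, 4 lay below 0 there (54.7% of all probes) and 5 in the 6 arrays (72.7%). Fewer cells of a type and less RNA per cell cannot be told apart in these tissue samples.

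**Figure D1:**
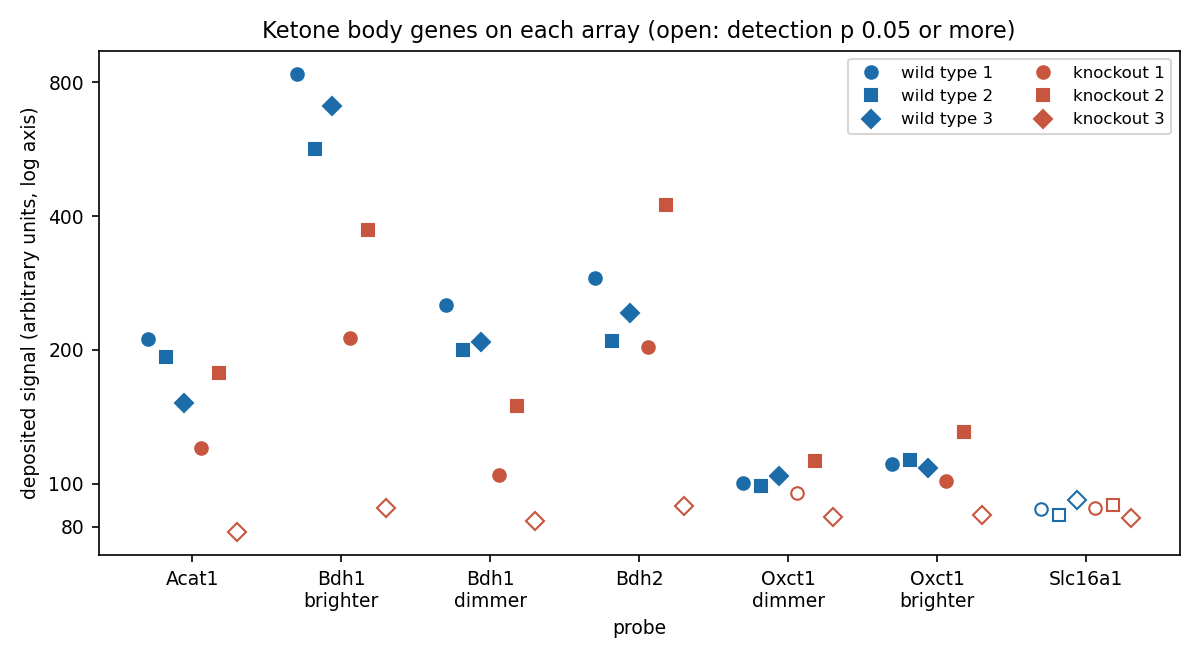
Deposited signal (arbitrary units, log axis) of the 7 member probes on each array, wild type in blue and Creb3l3 knockout in red, with open symbols where the detection p was 0.05 or more. At both Bdh1 probes all knockout arrays lie below all wild-type arrays; for Bdh2 knockout mouse 2 (423) lies above the wild-type arrays (210 to 290) and knockout mouse 1 (203) below them; Slc16a1 is open throughout.

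Bdh1 makes the last step of ketogenesis, from acetoacetate to beta-hydroxybutyrate. Its brighter probe read 836, 566 and 708 (deposited signal, arbitrary units) for wild-type mice 1, 2 and 3, against 212, 372 and 88.0 for knockout mice 1, 2 and 3. All 3 knockout values lay below the lowest wild-type value, and the last had a detection p of 0.115. The arrays of knockout mice 1 and 3 were dim, with mean signals of 149 and 87.3 against 219 to 252 in wild type. How many other probes separate in this way in deposited signals was not counted. After background correction and quantile normalization the log2 signals of this Bdh1 probe were 9.17, 8.92 and 9.26 in wild type, against 8.53 and 7.88 in knockout mice 1 and 2. The groups did not overlap, which held in this direction for 16.4% of all tested probes, and for 13.4% in the 6 arrays. Wild type averaged 9.12 ± 0.18 (SD, n = 3) and the knockout 8.21 ± 0.46 (SD, n = 2), a log2 change of -0.91 ± 0.23 (SE; adjusted p = 0.223). With all 6 it was -1.57 ± 0.59 (adjusted p = 0.653).

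The dimmer Bdh1 probe gave 253, 200 and 208 in wild type and 104, 150 and 82.3 in the knockout, in the same order. Again every knockout value was lower than every wild-type value, with knockout mice 1 and 3 on dim arrays. The signal of knockout mouse 1 exceeded the median of its array by 9.33, with a detection p of 0.00962. That of knockout mouse 3 was not detected. Normalized log2 signals were 7.11, 6.97 and 7.06 in wild type, against 5.41 and 5.93 in knockout mice 1 and 2. The wild-type mean was 7.05 ± 0.07 (SD, n = 3), and the knockout mean was 5.67 ± 0.37 (SD, n = 2). The log2 change was -1.38 ± 0.19 (SE; 95% interval -1.83 to -0.93; adjusted p = 0.0377), and the probe ranked 39 of 14345 by p. With knockout mouse 3 included it was -1.73 ± 0.40 (adjusted p = 0.653).

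The direction of Bdh1 held at both probes under each of the 15 alternatives tried in the 5 arrays, with log2 changes of -1.64 to -0.59 at the brighter and -1.69 to -0.65 at the dimmer one. The call did not. The dimmer probe kept it under 7 of 15 alternatives and the brighter passed under 0. At the dimmer probe the call was lost without wild-type mouse 1 (adjusted p = 0.191), 2 (0.163) or 3 (0.207), without knockout mouse 1 (0.0566), with no filter (0.205), under median scaling (0.776) and with either replicate block (0.0508 and 0.067). Knockout mouse 2, the one whose array was as bright as wild type, set against wild type alone, gave -1.25 ± 0.20 (SE; adjusted p = 0.0724) at the brighter and -1.16 ± 0.17 (adjusted p = 0.0566) at the dimmer probe. Knockout mouse 1, with its dim array, alone gave -0.59 and -1.61, so the 2 probes differed more on that array than on the bright one. The position of each probe on the transcript was not analysed here.

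**Figure D2:**
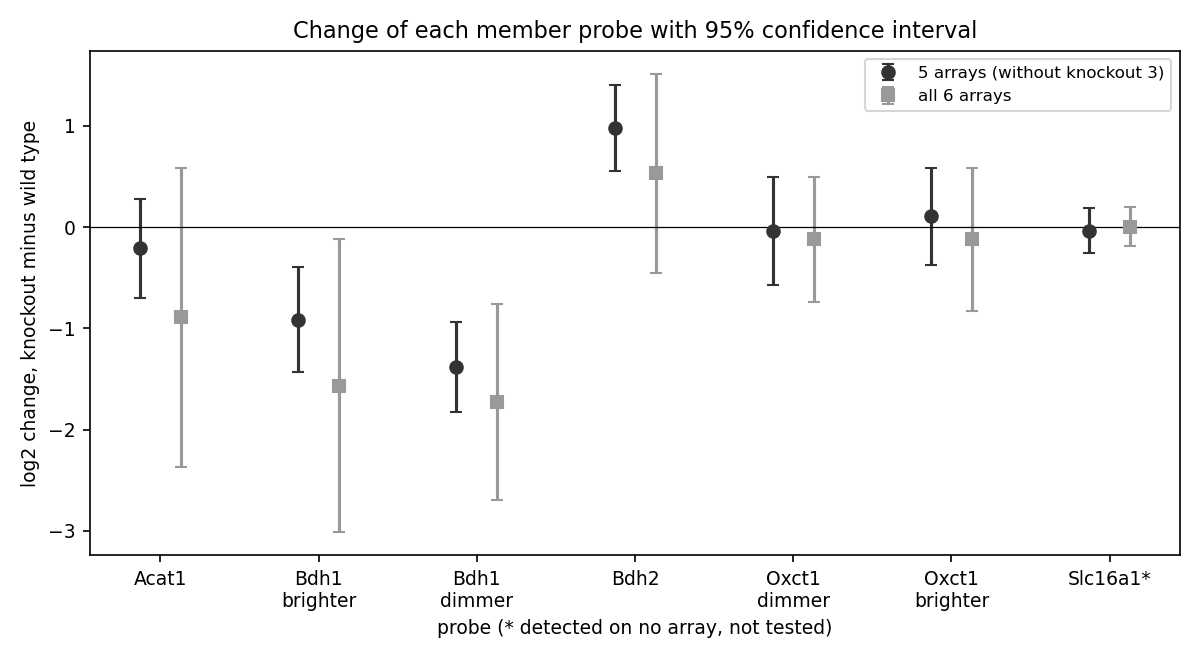
Log2 change (knockout minus wild type, y axis) of each member probe with its 95% confidence interval, for the 5 arrays without knockout mouse 3 (black circles) and for all 6 (grey squares). Both Bdh1 probes lie below 0 in both fits, and Bdh2 lies above 0 with an interval that reaches below 0 in the 6 arrays (-0.45 to 1.52).

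Bdh2, the cytosolic dehydrogenase, read 290, 210 and 242 for wild-type mice 1, 2 and 3, against 203, 423 and 89.2 for knockout mice 1, 2 and 3. The bright knockout array lay above every wild-type array, the dim knockout mouse 1 just below them, and knockout mouse 3 was not detected. Normalized log2 signals were 7.38, 7.07 and 7.38 in wild type, against 8.41 and 8.10 in knockout mice 1 and 2. On this scale both knockout mice lay above wild type, as they did for 12.9% of all tested probes, and for 3.99% in the 6 arrays. For knockout mouse 1 that order comes from the correction and scaling of a dim array. The means were 7.28 ± 0.18 (SD, n = 3) and 8.25 ± 0.22 (SD, n = 2), and the log2 change was 0.98 ± 0.18 (SE; 95% interval 0.55 to 1.40; adjusted p = 0.116). With knockout mouse 2 alone it was 0.83 ± 0.20 (adjusted p = 0.179). It passed under 5 of 15 alternatives. These were cyclic loess, no background correction, a trended and robust variance, the authors' value table and the fit without knockout mouse 2. The last of these has the dim knockout mouse 1 as its sole knockout array, where the deposited signal lay below wild type. Over the 15 alternatives the log2 change ranged from 0.29 to 1.13, with adjusted p-values up to 0.829. The lowest value came from median scaling, which put the median of all probes at -0.42. Across all 6 arrays the log2 change was 0.53 ± 0.40 (adjusted p = 0.653) and the groups overlapped.

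The signals of Bdh1 and Bdh2 on the same array can be set against each other without any normalization between arrays. Deposited signals still hold background, which draws such a ratio toward 1 on a dim array. At the brighter Bdh1 probe the ratio of deposited signals, Bdh1 over Bdh2, was 2.88, 2.70 and 2.92 in wild-type mice 1, 2 and 3. It was 1.04 and 0.880 in knockout mice 1 and 2. The wild-type mice were alike and both knockout mice lay far below them, the dim and the bright one with similar ratios. Taken as the excess over each array's median signal, the ratios were 3.79, 4.03 and 4.08 for wild type, against 1.08 and 0.845 in the knockout. At the dimmer probe the deposited ratios were 0.872, 0.953 and 0.857 for wild type, against 0.513 and 0.354 in the knockout, again without overlap. As excess over the median they were 0.810, 0.916 and 0.770 for wild type, against 0.0861 and 0.170 in the knockout. How many other pairs of probes separate the genotypes in this way was not counted. On the normalized scale the difference Bdh1 minus Bdh2 went from 1.84 ± 0.04 (SD, n = 3) for wild type to -0.05 ± 0.24 (SD, n = 2) for the knockout at the brighter probe, and from -0.23 ± 0.12 to -2.59 ± 0.59 at the dimmer. An exact two-sided permutation test over the 10 assignments of the mice gave p = 0.2 for each. That is the smallest p this test could give here, so it could not pass and decides nothing. On knockout mouse 3 the ratios were 0.987 and 0.923, of signals that were not detected, and that of the dimmer probe lay inside the wild-type range. The pair was chosen after its values were seen, so the ratios are a description of these arrays, and they do not tell which of the 2 signals differed.

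**Figure D3:**
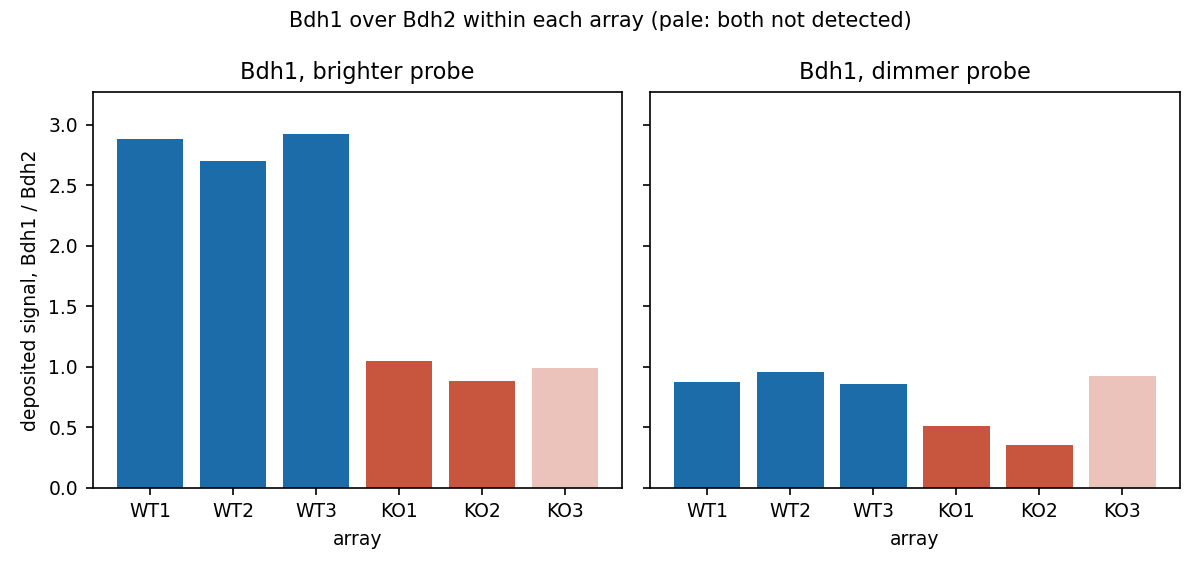
Ratio of deposited signals, Bdh1 over Bdh2 (y axis, linear from 0), on each array (WT1 to WT3 wild type, KO1 to KO3 Creb3l3 knockout), for the brighter Bdh1 probe on the left and the dimmer on the right. The wild-type bars stand at 2.70 to 2.92 and 0.857 to 0.953, those of knockout mice 1 and 2 at 0.880 to 1.04 and 0.354 to 0.513, and the pale bar is the array on which neither gene was detected.

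Acat1 feeds the pathway with acetoacetyl-CoA. It read 211, 193 and 151 for wild-type mice 1, 2 and 3, against 120, 177 and 77.7 for knockout mice 1, 2 and 3. The bright knockout array fell inside the wild-type range, and the groups overlapped. Normalized log2 signals averaged 6.64 ± 0.31 (SD, n = 3) and 6.43 ± 0.12 (SD, n = 2), a log2 change of -0.21 ± 0.21 (SE; adjusted p = 0.706). The 95% interval, -0.70 to 0.28, leaves room for a fall as well as for none. All 15 alternatives in the 5 arrays kept its sign, from -0.72 to -0.09, and 0 passed. Knockout mouse 3 was not detected (detection p of 0.935), and with its array included Acat1 stood at -0.89 ± 0.61 (adjusted p = 0.653).

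Oxct1, the enzyme of ketone body use, was near background. At its brighter probe the wild-type mice read 111, 113 and 108, and knockout mice 1, 2 and 3 read 101, 130 and 85.0, from 1.31 to 36.7 above the median of the array. The bright knockout array was the highest of all and the dim ones were the lowest, so the groups overlapped, and knockout mouse 3 was not detected. At its dimmer probe they were 100.2, 98.9 and 104 for wild type, against 95.1, 112 and 84.3 in the knockout, with knockout mice 1 and 3 not detected. Log2 changes were 0.11 ± 0.21 (SE; 95% interval -0.38 to 0.59; adjusted p = 0.856) and -0.04 ± 0.23 (-0.57 to 0.50; adjusted p = 0.96). Across all 6 arrays they were -0.12 ± 0.29 (adjusted p = 0.82) and -0.12 ± 0.25 (adjusted p = 0.796), so the brighter probe has opposite signs in the 2 fits.

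Because Oxct1 is scarce in hepatocytes, markers of other cells are given beside it. Which cells gave its signal here was not tested. Of 6 tested Kupffer cell markers 0 passed, 5 lay above 0 and 1 below, with a median log2 change of 0.25 in the 5 arrays and -0.19 in the 6. The deposited signals of the 7 Kupffer cell genes on the array summed to 1567 to 1875 in wild type and to 1019, 2145 and 589 in knockout mice 1, 2 and 3. Of 5 tested endothelial markers 0 passed and 4 lay above 0 (median 0.22, and -0.28 in the 6 arrays). Stellate markers had 3 tested and cholangiocyte markers 2, of which 0 passed. The summed signal of 4 red blood cell genes was 23106 to 26935 in wild type and 28381 in knockout mouse 2, but 3961 in knockout mouse 1 and 1135 in knockout mouse 3. Of 4 lymphocyte genes 0 were detected on wild-type arrays and 2, 1 and 1 on knockout mice 1, 2 and 3. For 3 adipocyte genes the numbers were 0 in wild type and 2, 0 and 1, and for 4 muscle genes 1, 0 and 2 in wild type and 1, 1 and 0. Their part in the values of the members was not tested.

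Slc16a1, the exporter, gave 87.7, 85.2 and 91.7 in wild type and 88.3, 89.4 and 83.5 in the knockout, with detection p-values of 0.205 to 0.846. It was not well above background on any array, so neither a level nor a fold can be given. A single probe carries the gene here.

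The other genes of the pathway were taken from 4 lists, each gene by its brightest tested probe. By gene, 0.338% of 10055 tested genes were called in the 5 arrays, 0.269% lower, and 0% of 10171 in the 6. The share below 0 was 52.2% in the 5 arrays and 70.2% in the 6. Of 7 other enzymes of ketone body synthesis and use, 4 were tested and 0 passed, 2 below 0 and 2 above, with a median log2 change of -0.11 and a range of -0.37 to 0.31. The median over all genes was -0.01. In this list 1 gene had an unadjusted p under 0.05, on the low side. In the 6 arrays all 4 lay below 0 (median -0.41), Acat2 among them. Acat2, the cytosolic thiolase, read 224, 175 and 178 in wild type, against 134 and 242 for knockout mice 1 and 2, and stood at 0.31 ± 0.16 (SE; adjusted p = 0.476) in the 5 arrays and at -0.55 ± 0.72 (adjusted p = 0.697) in the 6.

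Other monocarboxylate transporters and their chaperones had 16 of 17 genes on the array and 7 tested, of which 0 passed, 3 lay below 0 and 4 above (median 0.03, and 0.07 in the 6 arrays). Slc16a7, the transporter MCT2, stood at -0.23 ± 0.19 (SE; adjusted p = 0.643), with 261, 204 and 252 in wild type, against 128 and 251 in knockout mice 1 and 2. Slc16a9 stood at -0.12 ± 0.16 (adjusted p = 0.784) and Slc16a14 at 0.64 ± 0.29 (adjusted p = 0.431). The latter was detected on 1 of 3 wild-type arrays, with deposited signals of 92.0 to 103. In the 6 arrays Slc16a7 stood at -0.95 ± 0.62 (adjusted p = 0.653) and Slc16a14 at 1.32 ± 0.67 (adjusted p = 0.653). Slc16a9 took the opposite sign there, at 0.18 ± 0.30 (adjusted p = 0.748). On knockout mouse 3 neither Slc16a7 (85.6) nor Slc16a9 (87.8) was detected. Slc16a14 read 90.1 on that array, 6.41 above its median, which normalization over the 6 arrays turned into a log2 signal of 7.30.

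Enzymes of mitochondrial fatty acid oxidation, which supply the acetyl-CoA, had 16 tested genes, of which 0 passed, 12 lay below 0 and 4 above. Their median was -0.12 and their range -0.33 to 0.20, and 0 had an unadjusted p under 0.05. Eci1, the enoyl-CoA isomerase, stood at -0.33 ± 0.16 (SE; adjusted p = 0.444), with 2732, 2414 and 2411 in wild type, against 707 and 2212 in knockout mice 1 and 2. Slc25a20, the carnitine carrier of the inner membrane, stood at -0.32 ± 0.15 (adjusted p = 0.45) and Hadhb, the thiolase subunit of the trifunctional protein, at -0.23 ± 0.18 (adjusted p = 0.613). In the 6 arrays Eci1, Slc25a20 and Hadhb stood at -0.18, -0.32 and -0.48, and 14 of the 16 genes lay below 0 (median -0.11).

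Regulators and sensors of ketone bodies had 7 tested genes, with 3 that fell, 0 that rose and 4 that did not pass (median -0.33). The 3 were Creb3l3 itself, the fasting hormone Fgf21 and Ppara, the nuclear receptor that drives hepatic ketogenesis in fasting. Creb3l3 is the gene knocked out, so its fall is no separate result, and the list was chosen with earlier results known. Ppara had 144, 127 and 131 in wild type, against 96.0, 103 and 77.5 for knockout mice 1, 2 and 3, and was not detected on the first and the last of these. Its log2 signal fell by 1.24 ± 0.17 (SE, adjusted p = 0.0345). Fgf21 had 276, 306 and 346 in wild type and 98.2, 133 and 86.9 in the knockout, detected there on knockout mouse 2 alone, and fell by 2.64 ± 0.33 (adjusted p = 0.0255). On knockout mouse 1 the log2 signals of Ppara (4.42) and Fgf21 (4.57) lay below the lowest of any detected probe on that array (4.94), so the size of both falls rests on 1 knockout array with a detected signal. Creb3l3 fell by 2.32 ± 0.15 (adjusted p = 0.00271). Sirt3, the mitochondrial deacetylase, stood at -0.33 ± 0.18 (adjusted p = 0.492), the coactivator Ppargc1a at -0.33 ± 0.34 (adjusted p = 0.717) and the forkhead factor Foxa2 at 0.07 ± 0.35 (adjusted p = 0.948). With knockout mouse 3 added, Creb3l3, Fgf21 and Ppara stood at -2.72, -2.42 and -1.25, Sirt3 at -1.37, Ppargc1a at -0.71 and Foxa2 at 0.12. In that fit 0 of the 34 tested genes of the 4 lists were called, and 4 were with array weights.

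**Figure D4:**
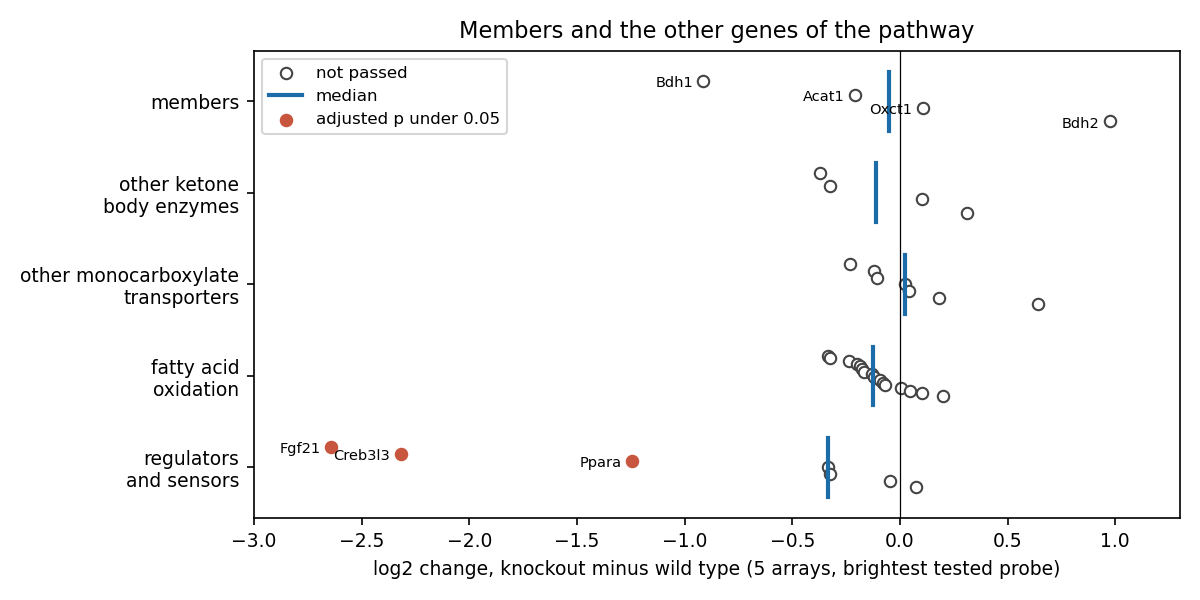
Log2 change (knockout minus wild type, x axis, 5 arrays) of the tested members and of the genes of 4 pathway lists, 1 point per gene at its brightest tested probe, filled red where the adjusted p was under 0.05, with a blue bar at each median. Bdh1 (-0.91) and Bdh2 (0.98) lie at the ends of the members, and the red points are Fgf21, Creb3l3 and Ppara.

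Genes with the pattern most like each member were sought over the 5 arrays, by the root mean square difference of log2 signals after each probe was centred on its own mean. For the brighter Bdh1 probe, Spp2, a secreted phosphoprotein of liver, lay at 0.114. Spp2 had log2 signals of 10.47, 10.30 and 10.54 in wild type, against 9.92 and 9.48 in knockout mice 1 and 2. For Bdh2 the nearest were Gmppb, which makes GDP-mannose, at 0.0556 and the chemokine Ccl5 at 0.0928. Gmppb ran at 4.69, 4.38 and 4.81 in wild type and 5.67 and 5.40 in the knockout. Its wild-type signals were near background, and that of wild-type mouse 2 lay below the lowest of any detected probe on that array (4.56). Within a difference of 0.2 lay 33 probes for Bdh1 and 41 for Bdh2, but 1015 for Acat1 and 2678 for Oxct1. For Acat1 the nearest were Desi2 (0.0581) and Tmem214 (0.0646), and for the brighter Oxct1 probe Ccdc51 (0.0246) and Zfand2a (0.0247). These are likenesses over 5 arrays that share their scaling.

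**Figure D5:**
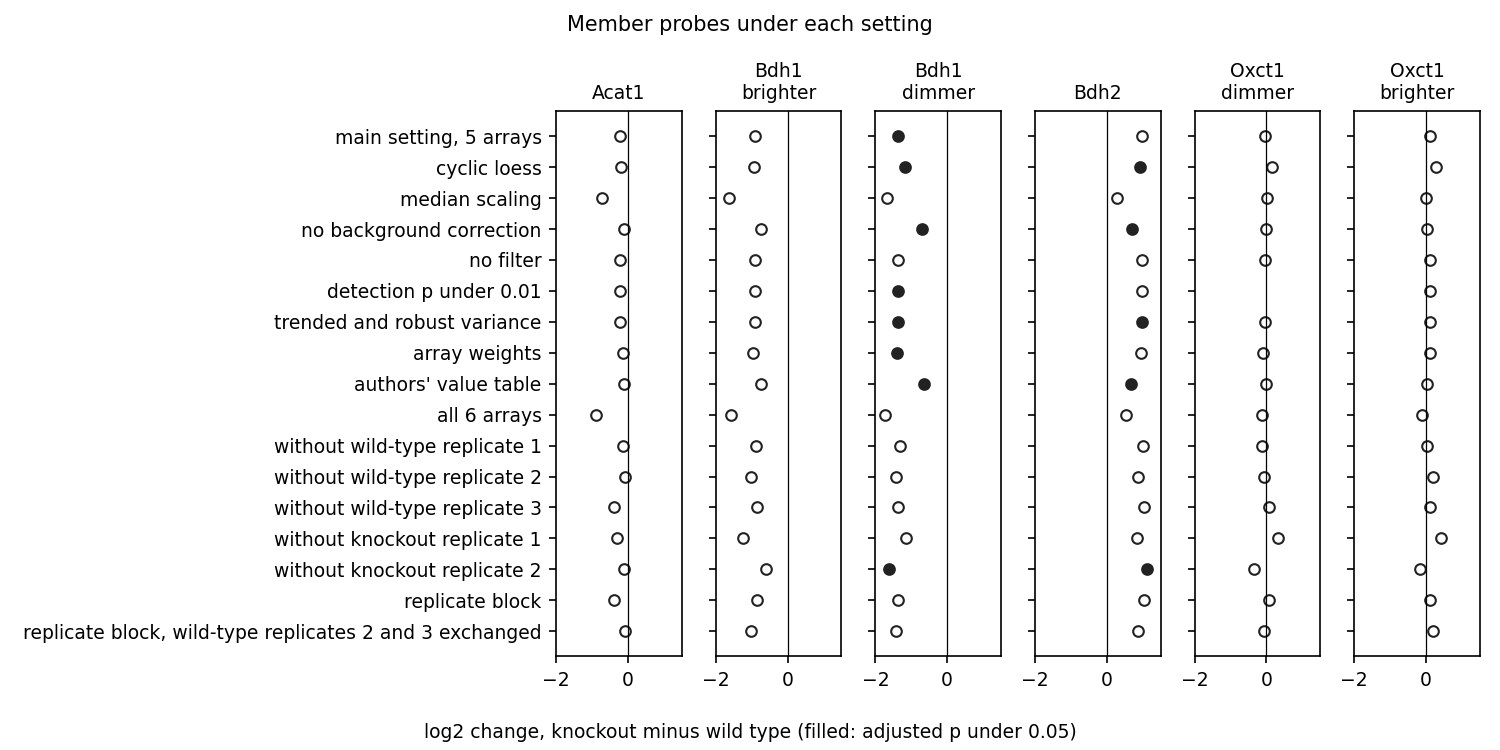
Log2 change (knockout minus wild type, x axis) of the 6 tested member probes under each setting (rows), filled where the adjusted p was under 0.05. The Bdh1 probes stay left of 0 and Bdh2 right of 0 in each row, with 8 filled points for the dimmer Bdh1 probe, the main setting included, 5 for Bdh2 and 0 elsewhere.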

How the data were processed

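Liver RNA of 6 mice was measured on Illumina WG-6 bead arrays, 1 per mouse. Groups and replicate numbers came from the sample titles. The deposited array tables give a mean bead intensity per probe, per the file headers an average signal, neither normalized nor background-subtracted by its values, and a detection p-value for each probe from the software of the authors, BeadStudio 3 per the submitters' processing notes. The authors' value table holds intensity values on a linear scale whose columns match quantile-normalized signals, with medians of 91.6 to 91.7. Its centring is none and it has no direction to settle, its method is not stated, and its columns for wild-type mice 2 and 3 are exchanged against the array tables. It served as an alternative only. Signals were processed with limma 3.58.1 (R 4.3.3) by neqc (normexp with negative controls inferred from detection p, offset 16, quantile normalization, log2). Probes detected (p under 0.05) on 3 or more arrays were tested with lmFit and eBayes, genotype being the sole term, two-sided, with Benjamini-Hochberg adjustment over all probes tested. Where 1 knockout array is left, its spread is taken to be that of wild type. Array number limits the precision, and no 2 arrays shared values. Symbols were updated through a gene table of GRCm38.p6 (27740 current, 8037 renamed, 9504 unmatched). Of the members, 4 of 5 had a promoter window. The steps were tested on simulated data.

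Members, lists and the choice of 5 arrays were made with earlier results of these data known. Named were the members, list genes that passed, up to 3 others of each list by p, and the 2 genes most like each member. A few genes under this rule go unreported. Figures were drawn with matplotlib 3.10.9.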

Additional observations from a re-analysis of the deposited data

How the results depend on the processing

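Bdh1 stayed below 0 at both probes, Bdh2 above and Acat1 below under all 15 alternatives in the 5 arrays and in the 6. The number of member probes called, 1 of 6 in the main setting, was 2 with cyclic loess, no background correction, a trended and robust variance and the authors' value table, and 0 with median scaling, no filter, all 6 arrays and either replicate block. It ranged from 0 to 2 when 1 mouse was left out. The number of all probes called, 49, was 83 with cyclic loess and with the authors' value table, 89 with no background correction, 122 with a trended and robust variance, 32 with array weights, 4 with median scaling, 1 with no filter and 0 in the 6 arrays, and 9 to 2234 when 1 mouse was left out, the highest without knockout mouse 2. Genes of the pathway lists called, 3, were 2 with cyclic loess, no background correction, array weights, the authors' value table and both replicate blocks, 0 with median scaling and in the 6 arrays, 1 with no filter and 1 to 3 when 1 mouse was left out, 1 without wild-type mouse 2 or 3. The dimmer Oxct1 probe turned to 0.17 with cyclic loess, 0.0242 with median scaling, 0.0676 with the replicate block, 0.07 without wild-type mouse 3 and 0.34 without knockout mouse 1, and ranged from -0.35 to 0.34 when 1 mouse was left out. Its brighter probe turned to -0.0035 with median scaling, -0.12 in the 6 arrays and -0.16 without knockout mouse 2, and ranged from -0.16 to 0.42 when 1 mouse was left out. Signals this near background leave no order. In the 6 arrays array weights, chosen after seeing the data, called 3 member probes, 4 list genes and 2832 of 14494 probes (19.5%), cyclic loess called 0 member probes and 3 in all, and the replicate block called 0 in all. The cause of these changes was not tested, beyond the number of probes tested under no filter and of mice when 1 is left out.

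Replicate numbers are shared by the genotypes. The deviations of same-numbered mice showed little correlation (-0.0452, -0.0482 and 0.0368), and those of mice with different numbers gave -0.0409 to 0.0753. With so few mice per genotype, these values cannot tell whether the numbers pair the mice. The dim array of knockout mouse 3 entered them, and the numbers of some wild-type mice are exchanged in the authors' values. With the replicate block 13 probes were higher and 34 lower.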
